A study of Mus musculus with 12 samples.

Results

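Interleukin-1 (IL-1) family cytokines and their receptors were followed in mouse neutrophils and macrophages exposed to calcitonin gene-related peptide (CGRP), a neuropeptide released by sensory neurons. The set consisted of 8 genes, taken by name from the deposited count tables and found in both: Il1a, Il1b, Il18, Il1rn, Il18bp, Il1r1, Il1r2 and Il1rap, out of 52636 genes listed in each table. Neutrophils were enriched by negative selection from the bone marrow of wild-type C57BL/6J mice (8 to 12 weeks of age). Macrophages (labelled monocyte/macrophage) were bone marrow monocytes from the same strain and age, kept in culture for 3 days with M-CSF at 10 ng/ml, the growth factor that drives macrophage differentiation. Each cell type then received either CGRP at 1 nM or PBS (saline) during 4 h, with 3 libraries per group and 12 in all. No allele or other agent is named in the labels, and neither the sex of the mice nor whether the 3 libraries of a group came from separate mice is given, so p-values measure the spread between these libraries, which may be technical. Libraries were 3′-end RNA-seq libraries with molecular identifiers. Total counts ran from 2196558 to 3631989 in neutrophil libraries and from 2002559 to 3477069 in macrophage libraries.

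IL-1α and IL-1β signal through the receptor IL-1R1 together with the accessory chain encoded by Il1rap. The receptor antagonist encoded by Il1rn occupies IL-1R1 without signalling, and the decoy receptor encoded by Il1r2 binds IL-1 but lacks a signalling domain. IL-18 is a related cytokine that is neutralised by the soluble binding protein encoded by Il18bp. IL-1β and IL-18 are made as inactive precursors, cleaved by caspase-1 in inflammasomes or by other proteases, and neutrophils are known as a source of IL-1β and carriers of the decoy receptor. All values below are mRNA levels, which do not report cleavage or release.

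In GRCm38 coordinates, the agonist and antagonist genes lie on chromosome 2, with Il1rn at chr2:24336853-24351494 on the plus strand, Il1a at chr2:129299610-129309972 on the minus strand and Il1b at chr2:129364570-129371139 on the minus strand. Both IL-1 receptor genes lie on the plus strand of chromosome 1, with Il1r2 at chr1:40074079-40125231 and Il1r1 at chr1:40225080-40317257. Il1rap lies at chr16:26581704-26730117 (plus strand), Il18 at chr9:50554827-50581840 (plus strand) and Il18bp at chr7:102014885-102018690 (minus strand). A featureCounts value covers all annotated exons of a gene, so the transcripts of a gene (1 for Il1a and 7 for Il1rap, for example) were not separated.

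The sequences upstream of Il1b and Il18 are shown because these are the ligand genes whose mRNA rose in neutrophils. Each run is the 250 bases before the RefSeq start (GRCm38.p6), read 5′ to 3′ on the gene's strand, at chr2:129371140-129371389 (minus strand) for Il1b and chr9:50554450-50554699 (plus strand) for Il18. Capitals mark the matches to the motifs searched on both strands, which were the cyclic AMP response element TGACGTCA and its 5-base part TGACG, the AP-1 type motif TGANTCA, the C/EBP type motif TTNNGNAA, the NF-kB type motif (GGG and CC, 5 bases apart) and the TATA motif TATAAA.
Il1b: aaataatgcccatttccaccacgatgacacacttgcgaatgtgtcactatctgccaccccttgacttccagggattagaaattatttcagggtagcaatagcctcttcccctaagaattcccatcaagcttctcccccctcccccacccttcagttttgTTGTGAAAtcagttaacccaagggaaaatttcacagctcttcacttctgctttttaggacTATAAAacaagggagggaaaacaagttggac
Il18: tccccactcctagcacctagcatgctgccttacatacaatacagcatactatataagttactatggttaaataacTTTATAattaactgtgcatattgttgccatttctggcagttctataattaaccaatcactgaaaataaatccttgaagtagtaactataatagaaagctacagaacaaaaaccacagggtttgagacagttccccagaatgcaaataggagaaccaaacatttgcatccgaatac
The Il1b run holds a C/EBP type match from base 91 to base 84 before the start, and a TATA match from base 31 to base 26. The Il18 run holds a TATA match on the opposite strand, from base 175 to base 170 before the start. Neither run holds the other letters searched. Among all 32851 RefSeq windows of the same length, 1.55% hold TGACGTCA, 17.8% TGACG (which TGACGTCA contains), 6.75% TGANTCA, 36.8% TTNNGNAA, 45.8% the NF-kB type motif and 12.4% TATAAA. The window before the RefSeq start of Il1r2 held none of the 6 motifs, and its sequence is not shown because 117 of its bases lie in annotated exons. A match is a run of letters and not a measured binding site.

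The marker sums differed between the cell types in the direction of the labels. The summed level of 12 neutrophil markers, of which S100a8 was the most abundant, was 193320 ± 35576 CPM in PBS neutrophils and 351 ± 47.5 CPM in PBS macrophages (SD, n = 3 each). CPM is a count relative to the library's total of tested genes (counts per 1000000), scaled by TMM within a cell type unless another scale is named. The sum of 12 monocyte and macrophage markers was 3954 ± 354 CPM in PBS neutrophils, led by Ly6c2, and 10064 ± 267 CPM in PBS macrophages, led by C1qb. Within that list 9 genes were higher in PBS macrophages, whereas Ly6c2 (2660 against 31.7 CPM) and F13a1 (316 against 174 CPM) were higher in PBS neutrophils, and Ccr2 was not called (limma-voom adjusted p = 0.162). Neutrophil libraries also held RNA of basophil and mast cell (1434 CPM), eosinophil (591 CPM) and erythroid (6406 CPM) marker sums.

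In neutrophils, CGRP was accompanied by higher mRNA of the cytokine genes Il1b and Il18 and of the decoy receptor gene Il1r2. Il1b was 2.08-fold, Il18 2.69-fold and Il1r2 3.18-fold higher in mean CPM than with PBS. No gene of the set was lower by the test, beside 1.02% of all genes tested. Of the 8 genes, 6 passed the filter on low counts and 3 were called higher at an adjusted p under 0.05 (limma-voom, two-sided, Benjamini-Hochberg over all 9819 genes tested), beside 1.51% of all genes tested called higher and 2.53% called in either direction. The median log2 fold change was 0.68 over the 6 tested genes and 0.0008 over all genes tested. The numbers called cannot speak for Il1a and Il1r1, which did not pass the filter.

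Il1b counts in neutrophils were 269, 310 and 272 with PBS and 593, 740 and 374 with CGRP, or 83.8, 92.9 and 96.9 CPM against 189, 217 and 164 CPM. The lowest CGRP library stood above the highest PBS library. On the log2 scale the difference was 1.06 (SE 0.11, limma-voom adjusted p = 3.22e-06). It stayed called in all 9 other processing settings and in all 6 fits that left out a library.

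Il1r2 was the member with the smallest p in neutrophils. Its counts were 549, 468 and 376 with PBS and 1651, 1616 and 951 with CGRP, that is 148 ± 19.8 CPM against 472 ± 54.3 CPM (SD, n = 3). The groups did not overlap, and the log2 fold change was 1.67 (SE 0.10, limma-voom adjusted p = 1.41e-09), called in all 9 other settings and with any library left out.

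Il18 was counted far less often, with 15, 12 and 15 counts under PBS and 41, 31 and 33 counts under CGRP. These correspond to 4.54 ± 0.881 and 12.2 ± 2.79 CPM (SD, n = 3), without overlap between the groups. The log2 fold change was 1.37 (SE 0.31, limma-voom adjusted p = 0.0159). The call was lost without PBS library 1 (adjusted p = 0.0875) and without PBS library 2 (adjusted p = 0.136). The summed monocyte and macrophage markers were 3954 ± 354 CPM with PBS and 3379 ± 423 CPM with CGRP in the same libraries, and their part in the Il18 level was not tested.

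The inhibitors and the accessory chain did not pass the test in neutrophils. Il1rn, the receptor antagonist, had 146, 154 and 162 CPM with PBS and 203, 188 and 178 CPM with CGRP, so that every CGRP library was above every PBS library. Its log2 fold change was 0.30 (95% interval 0.11 to 0.49, limma-voom adjusted p = 0.0905), and none of the 9 other settings called it (adjusted p 0.0553 to 0.185). With Il1b, Il1r2 and Il18, it made 4 of the 6 tested genes whose groups did not overlap and were higher with CGRP, beside 8.96% of all genes tested, and none was lower without overlap, beside 8.83%. Il18bp was at 21.01 ± 1.01 CPM with PBS and 17.2 ± 4.73 CPM with CGRP, which gave a log2 fold change of -0.27 (95% interval -0.69 to 0.15, limma-voom adjusted p = 0.643). Il1rap was at 13.2 ± 3.44 and 14.2 ± 3.197 CPM, with a log2 fold change of 0.17 (95% interval -0.33 to 0.66, limma-voom adjusted p = 0.847). Both overlapped between the groups.

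Il1a and the signalling receptor gene Il1r1 were near the limit of detection in neutrophils. Il1a had 5, 10 and 3 counts with PBS and 9, 8 and 7 with CGRP, a ratio of 1.47 with a 95% counting interval of 0.766 to 2.88. Il1r1 had 0, 2 and 3 counts with PBS and 2, 1 and 0 with CGRP. A count of 0 still allows 3 counts, or 0.881 to 1.32 CPM in these libraries. No difference was detectable for either gene at this depth, and such intervals cover counting error only.

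**Figure D1:**
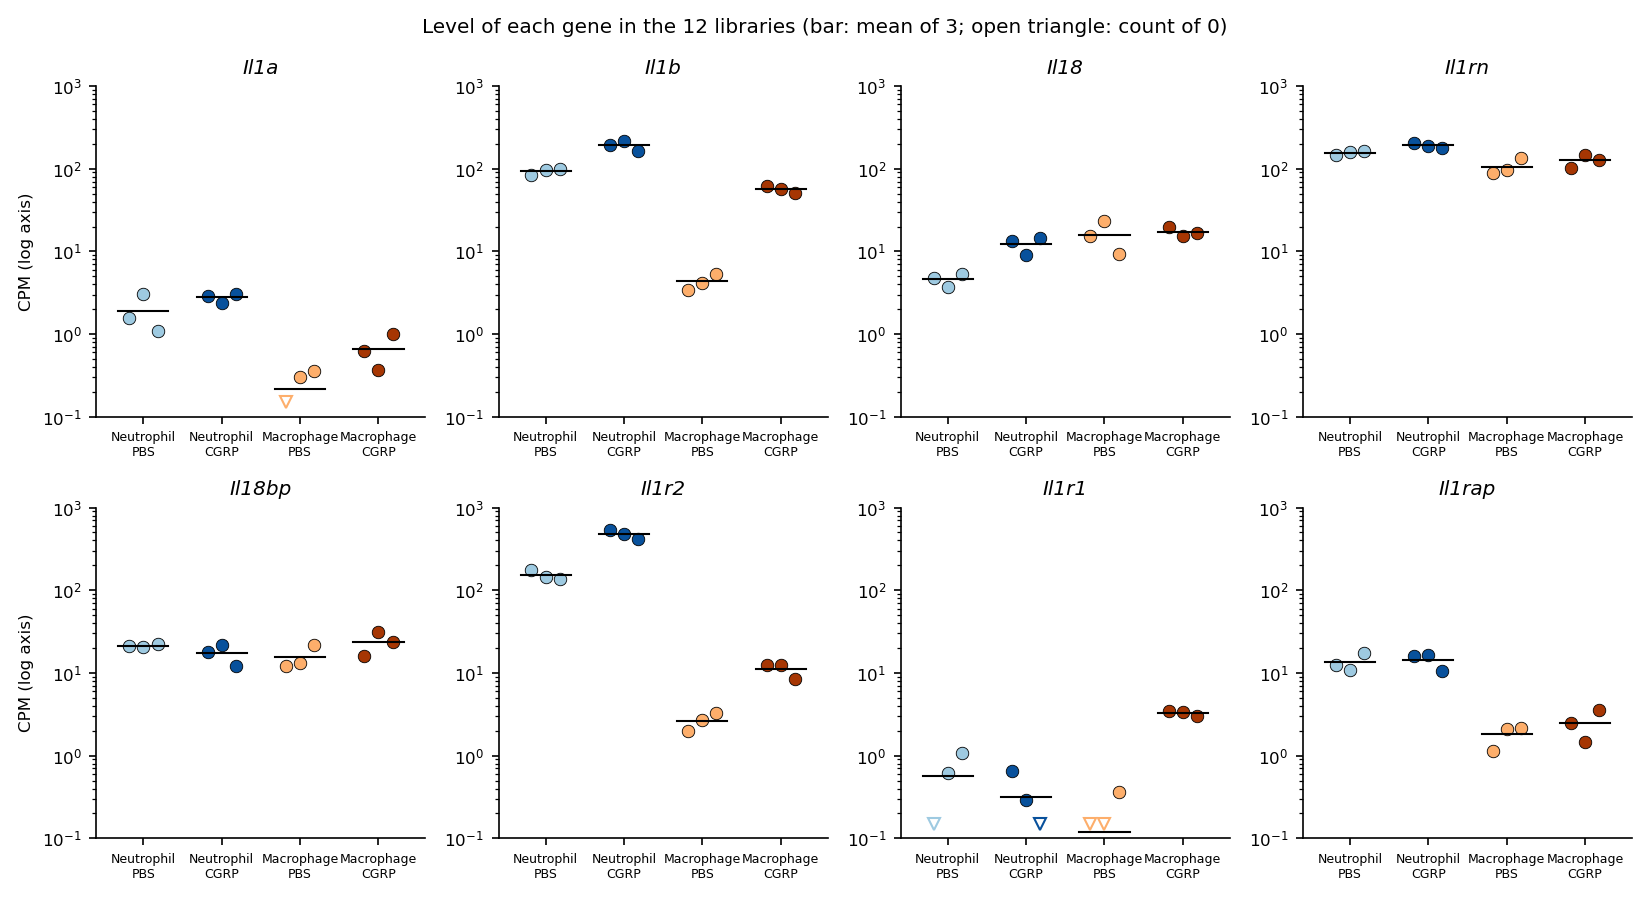
TMM-scaled CPM over the 12 libraries (log axis) of each of the 8 genes by group; each point is a library, each bar the mean of 3, and an open triangle a count of 0. Il1b and Il1r2 are higher in every CGRP library than in every PBS library of the same cell type, and Il1r1 is seen above 3 CPM only in the 3 CGRP macrophage libraries.

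In macrophages, Il1b rose 13.02-fold and Il1r2 4.25-fold in mean CPM, and Il1r1 went from 1 count in all PBS libraries to 26 counts in all CGRP libraries. The macrophage question was the same as in neutrophils, whether a 4-h exposure to CGRP changed these mRNAs. Of the 8 genes, 5 passed the filter and 2 (Il1b and Il1r2) were called higher by limma-voom over 9393 genes, beside 3.46% of all genes tested called higher and 7.43% called in either direction. None was called lower, beside 3.97% of all genes tested. The median log2 fold change was 0.59 over the 5 tested genes and 0.0047 over all genes tested. Both the count and the median include Il1r2, which entered the test only through its CGRP libraries, and are given as a description. In bulk RNA of either cell type, fewer cells of a type and less RNA per cell cannot be told apart.

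Il1b counts in macrophages were 12, 14 and 15 with PBS and 198, 154 and 100 with CGRP. In CPM, the PBS libraries were at 3.49, 4.24 and 5.48 and the CGRP libraries at 63.5, 57.7 and 50.8. The groups lay far apart (11.9% of all genes tested were higher without overlap), and the log2 fold change was 3.71 (SE 0.29, limma-voom adjusted p = 6.41e-07), called in all 9 other settings and with any library left out.

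Il1r2 had 7, 9 and 9 counts with PBS and 40, 34 and 17 counts with CGRP, or 2.68 ± 0.627 and 11.4 ± 2.40 CPM (SD, n = 3). Every CGRP library exceeded every PBS library. The log2 fold change was 2.09 (SE 0.38, limma-voom adjusted p = 0.00204). The gene passed the filter only through its CGRP libraries, where it was high, and a filter of 10 counts in every library removed it. In the fit without a filter, which does not depend on that choice, the log2 fold change was 2.07 (limma-voom adjusted p = 0.000598).

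Il1r1 had 0, 0 and 1 counts with PBS and 11, 9 and 6 counts with CGRP, or 3.53, 3.37 and 3.05 CPM in the CGRP libraries. The groups did not overlap. Relative to depth, the ratio of the summed counts was 30.7, with a 95% counting interval of 5.04 to 1259. The filter kept it out of the test. Without a filter, limma-voom put the log2 difference at 3.91 (SE 0.62, adjusted p = 8.43e-06), a fitted value that depends on the count added before taking logs. With 1 count in all PBS libraries, the gene can enter a test only through its CGRP libraries, so the counts themselves are the result. The overlapping locus Gm38070 had 0 counts in the macrophage libraries.

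The other 5 genes did not pass the test or could not be tested in macrophages. Il1rn had 88.8, 96.7 and 137 CPM with PBS and 105, 148 and 130 CPM with CGRP, which overlapped (log2 fold change 0.26, 95% interval -0.11 to 0.64, limma-voom adjusted p = 0.451). Il18 ranged from 9.50 to 23.3 CPM with PBS and from 15.4 to 20.2 CPM with CGRP (log2 fold change 0.18, 95% interval -0.44 to 0.79, limma-voom adjusted p = 0.799), and the estimate turned to -0.12 without PBS library 3. Il18bp was at 15.8 ± 5.31 CPM with PBS and 23.9 ± 7.56 CPM with CGRP (log2 fold change 0.59, 95% interval -0.0011 to 1.19, limma-voom adjusted p = 0.254). With library quality weights, Il18bp (adjusted p = 0.0175) and Il1rn (adjusted p = 0.0464) were called, and Il18bp was also called without CGRP library 1 (adjusted p = 0.0416). Il18bp shares 3.65% of the 31-base words of its transcript ends with Numa1, which overlaps it on the other strand and had 328 counts with PBS and 440 with CGRP, and the strand setting of the counting is not given in the sources used here. Il1rap had 17 counts in all with PBS and 19 with CGRP, and Il1a had 2 and 5, too few for the test.

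Neutrophil markers in the macrophage libraries were low in both groups. Their sum was 351 ± 47.5 CPM with PBS and 436 ± 16.6 CPM with CGRP (SD, n = 3), which is 0.1815% and 0.251% of their sum in the neutrophil libraries of the same treatment. On the 12-library scale, the Il1b level of CGRP macrophages was 29.5% of the Il1b level of CGRP neutrophils. The Il1r2 level of CGRP macrophages was 2.36% of the Il1r2 level of CGRP neutrophils. By library the sum was 342, 402 and 308 CPM with PBS and 455, 426 and 426 CPM with CGRP, so every CGRP library was above every PBS library. Of the 8 tested neutrophil markers none was called in macrophages, beside 7.43% of all genes tested, and all 12 had at least 1 count there. The median log2 fold change of these 8 was 0.38, against 0.0047 over all genes tested. Of the other marker genes, Ccr2, a chemokine receptor of monocytes, fell in neutrophil libraries (log2 fold change -0.49, limma-voom adjusted p = 0.00134) and in macrophage libraries (-0.81, limma-voom adjusted p = 4.80e-04). In neutrophil libraries Hdc, the histamine-forming enzyme, which stood on the basophil and mast cell list, rose by 1.40 on the log2 scale (limma-voom adjusted p = 1.17e-09). The integrin gene Itgb3, which stood on the platelet and megakaryocyte list, fell by 1.96 there (limma-voom adjusted p = 7.51e-05). In neutrophils the median log2 fold change was 0.012 over the 6 tested basophil and mast cell genes. It was -0.28 over the 4 tested platelet and megakaryocyte genes. No other gene of the 9 marker lists was called in either cell type. The part of other cells in these results was not tested.

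Whether CGRP acted differently in the 2 cell types was tested by the interaction over the 12 libraries. Il1b was the only member called of 6 tested, with a log2 fold change larger in macrophages by 2.66 (95% interval 2.01 to 3.31, limma-voom adjusted p = 1.26e-05), beside 1.21% of 10694 genes called in that direction, 1.15% in the other and 2.36% in either. Each of the 9 other settings and the 12 fits that left out a library called it too. The Il1r2 difference was 0.43 (95% interval -0.43 to 1.29, limma-voom adjusted p = 0.748). The gene passed the filter only through the groups where it was high, and not through PBS macrophages. Its difference is therefore given as a description, and no conclusion is drawn from that test. For Il18 the difference was -1.18 (95% interval -2.13 to -0.24, limma-voom adjusted p = 0.228), and it was called only without macrophage PBS library 3 (adjusted p = 0.0470). For Il18bp it was 0.88 (95% interval 0.13 to 1.63, limma-voom adjusted p = 0.265), called only with library quality weights (adjusted p = 0.0354), for Il1rap 0.28 (limma-voom adjusted p = 0.899) and for Il1rn -0.02 (limma-voom adjusted p = 0.979). Il1rap passed the filter only through the neutrophils, where it was high, so its difference is a description too. The sign for Il1rn changed in 6 of the other fits. Il1a and Il1r1 did not pass the filter (without a filter, the Il1r1 difference was 4.202, limma-voom adjusted p = 0.0414). With a library left out, Il1r1 was tested in 10 fits, of which 8 did not call it (adjusted p 0.0568 to 0.171).

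**Figure D2:**
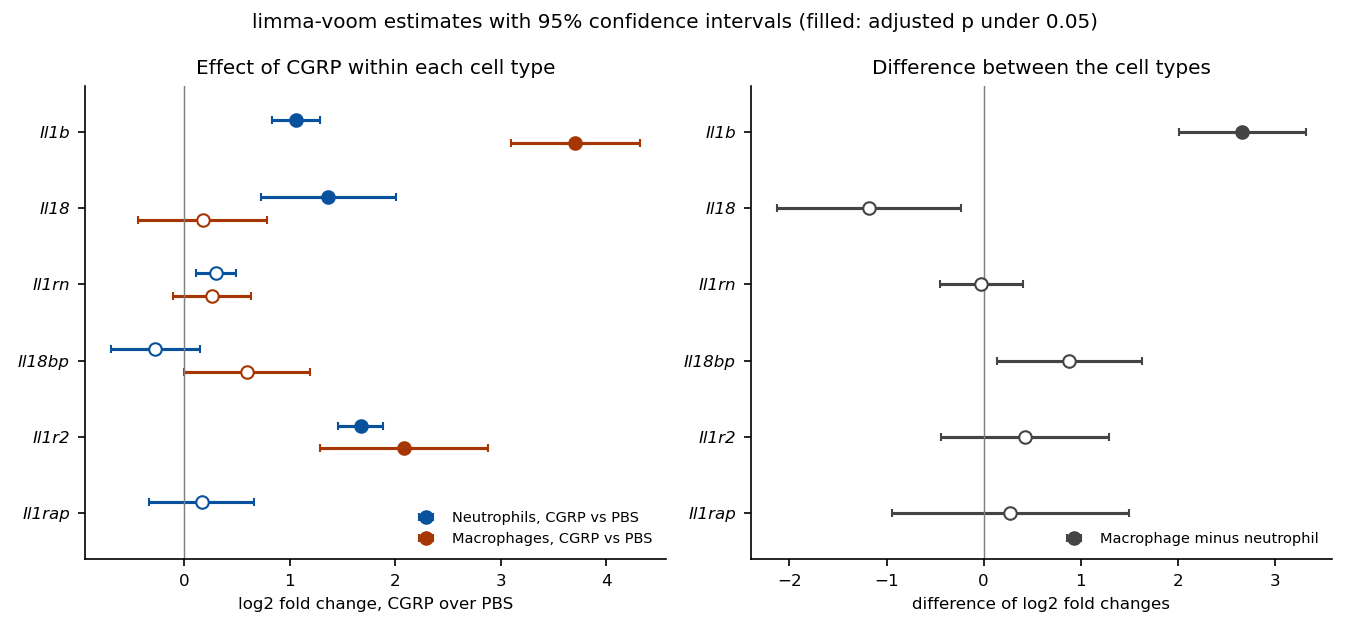
Log2 fold change of CGRP over PBS (left) and difference of these fold changes, macrophages minus neutrophils (right), for the tested genes; points are limma-voom estimates, bars 95% confidence intervals, and filled points have an adjusted p under 0.05. Il1b and Il1r2 are filled in both cell types and Il18 in neutrophils alone, and on the right Il1b (2.66) is the only filled point.

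Without CGRP, the cell types differed widely in the decoy receptor and IL-1β and less in the antagonist. On the 12-library scale, PBS neutrophils had 151 ± 20.1 CPM of Il1r2 and PBS macrophages 2.65 ± 0.615 CPM, a log2 difference of -5.79 (limma-voom adjusted p = 1.55e-12). Il1b was at 92.7 ± 6.80 and 4.34 ± 0.984 CPM (log2 difference -4.41, limma-voom adjusted p = 3.74e-12), and Il1rap at 13.5 ± 3.42 and 1.80 ± 0.567 CPM (log2 difference -2.82, limma-voom adjusted p = 3.43e-06). Of these groups, Il1r2 and Il1rap, with 7, 9 and 9 and with 4, 7 and 6 counts in PBS macrophages, passed the filter only through the neutrophils, where they were high, so their p-values add nothing to the levels. Il1rn differed by less, with 157 ± 8.06 and 106 ± 25.3 CPM (log2 difference -0.60, limma-voom adjusted p = 9.32e-04). Il18 went the other way, with 4.61 ± 0.868 CPM in neutrophils and 16.0 ± 6.88 CPM in macrophages (log2 difference 1.72, limma-voom adjusted p = 2.09e-04). Il18bp, at 21.4 ± 0.899 and 15.6 ± 5.20 CPM, did not pass (log2 difference -0.52, limma-voom adjusted p = 0.0732), but was called with library quality weights (adjusted p = 0.0144), without macrophage PBS library 3 (adjusted p = 0.0193) and without macrophage CGRP library 1 (adjusted p = 0.0439). In all, 5 of 6 tested genes were called, 4 lower and 1 higher in macrophages, beside 67.9% of all genes tested (35.4% lower and 32.5% higher), so the count says little about the set. Il1a, with 18 counts in PBS neutrophils and 2 in PBS macrophages, and Il1r1, with 5 and 1, did not pass the filter (without a filter, the log2 difference of Il1a was -2.52, limma-voom adjusted p = 0.00120). Those 5 genes also did not overlap between the cell types, beside 70.5% of all genes tested. Isolation kit, medium and the days in culture cannot be told apart from cell type.

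Across the 4 groups, the mean Il1b level ran from 191 CPM in CGRP neutrophils through 92.7 CPM in PBS neutrophils and 56.4 CPM in CGRP macrophages to 4.34 CPM in PBS macrophages (12-library scale). Libraries of neighbouring groups in this order did not overlap. Il1r2 held the same order, with 476, 151, 11.2 and 2.65 CPM, also without overlap. Il18 was highest in CGRP macrophages (17.2 CPM) and PBS macrophages (16.0 CPM), followed by CGRP neutrophils (12.3 CPM), which overlapped the PBS macrophages, and PBS neutrophils (4.61 CPM), which overlapped none of the other groups. Il1rn ran from 191 CPM in CGRP neutrophils and 157 CPM in PBS neutrophils to 126 CPM in CGRP macrophages and 106 CPM in PBS macrophages, and only the macrophage groups overlapped. Il1rap was at 14.3 and 13.5 CPM in CGRP and PBS neutrophils and at 2.50 and 1.80 CPM in CGRP and PBS macrophages, with overlap within each cell type and none between them. For Il18bp (15.6 to 23.6 CPM) neighbouring groups overlapped throughout. Il1a was at 2.78 and 1.91 CPM in CGRP and PBS neutrophils, which overlapped, and at 0.667 and 0.220 CPM in CGRP and PBS macrophages, where each library had 2 counts or fewer. Il1r1 was at 3.26 CPM in CGRP macrophages, above every library of the other groups, whose means ran from 0.120 to 0.565 CPM at 3 counts or fewer per library.

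Other genes of the IL-1 pathway were followed by lists. A list of 72 symbols for other ligands and receptors of the family, receptor signalling, processing and release, and IL-1 response genes had 67 members in the tables. In neutrophils 54 were tested, of which 2 were called higher and none lower, beside 1.51% and 1.02% of all genes tested. Tirap, an adaptor of Toll-like receptors that stood on the signalling list, rose by 0.46 on the log2 scale (limma-voom adjusted p = 0.0331) from 47.0 ± 1.30 to 64.9 ± 1.43 CPM. Nfkb2, which encodes the NF-kB precursor p100, rose by 0.60 (limma-voom adjusted p = 0.0258) from 27.5 ± 2.50 to 41.4 ± 1.40 CPM. Both calls were lost whichever of the 6 libraries was left out (adjusted p 0.0658 to 0.170 for Tirap and 0.0503 to 0.188 for Nfkb2). They were also lost with DESeq2 (0.0940 and 0.0707), without a filter (0.0871 and 0.0529) and after thinning (adjusted p = 0.101 for both). Of 16 tested signalling genes, the median log2 fold change was 0.17, of 19 processing genes -0.06 and of 14 response genes 0.04.

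In macrophages 45 of these genes were tested, and 3 were called higher and 4 lower, beside 3.46% and 3.97% of all genes tested. Mefv, which encodes the inflammasome sensor pyrin, had 24, 32 and 25 counts with PBS and 103, 78 and 57 with CGRP, and rose by 1.83 on the log2 scale (SE 0.24, limma-voom adjusted p = 9.15e-05). Casp1, the protease that cleaves the IL-1β and IL-18 precursors, had 438, 505 and 253 counts with PBS and 283, 202 and 128 with CGRP, and fell by 0.66 (limma-voom adjusted p = 0.0397). Aim2, a cytosolic DNA sensor, fell by 1.21 (limma-voom adjusted p = 0.0226), and Txnip, a thioredoxin-binding protein, rose by 0.53 (limma-voom adjusted p = 0.0376). The processing list thus held 2 genes higher and 2 lower of 16 tested, with a median log2 fold change of -0.10. Among 13 tested response genes, the chemokine gene Ccl2 fell by 2.05 (limma-voom adjusted p = 2.04e-05) and Tnf by 2.24 (limma-voom adjusted p = 0.0149), while Nfkb2 rose by 0.91 (limma-voom adjusted p = 0.00906), and the list's median was -0.02. Ccl2 counts were 153, 189 and 135 with PBS against 37, 38 and 19 with CGRP, and Tnf counts were 24, 13 and 10 against 3, 3 and 1. Tnf passed the filter only through its PBS libraries, where it was high, so its place in the count of lower genes is a description, and without a filter its adjusted p was 0.0158 (limma-voom). None of 16 signalling genes was called, and no other ligand or receptor of the family had enough counts to be tested.

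Mefv and Ccl2 stayed called with any library left out. The calls of Aim2 and Casp1 were lost without PBS library 1, PBS library 2, CGRP library 2 or CGRP library 3 (adjusted p 0.0709 to 0.0902 and 0.116 to 0.170), those of Txnip and Tnf without PBS library 1 or any of the CGRP libraries (adjusted p 0.0530 to 0.242 and 0.101 to 0.135), and that of Nfkb2 without PBS library 1 (adjusted p = 0.0503) or CGRP library 2 (adjusted p = 0.0676). The Txnip call was also lost with library size alone (adjusted p = 0.0819), without a filter (adjusted p = 0.0780) and after thinning (adjusted p = 0.0619). In the interaction over the 12 libraries, Mefv (1.52, limma-voom adjusted p = 0.00290) and Ccl2 (-2.10, limma-voom adjusted p = 2.94e-05) were called among the 7 genes named for macrophages. Those 7 had been chosen because they were called in macrophages. Of all 54 pathway-list genes tested in the interaction, 1 was called higher and 1 lower, beside 1.21% and 1.15% of all genes tested. Txnip (adjusted p = 0.0511) was called with DESeq2 (0.0366), 10 counts in every library (0.0474), quality weights (0.00669) and without macrophage PBS library 3 (0.0309), and Tnf (adjusted p = 0.0924) with edgeR's quasi-likelihood test (0.0470) and quality weights (0.0340). Ccl2 was at 75.9 ± 3.79 and 81.1 ± 15.5 CPM in PBS and CGRP neutrophils, and Mefv at 27.7 ± 3.30 and 34.4 ± 5.997 CPM.

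**Figure D3:**
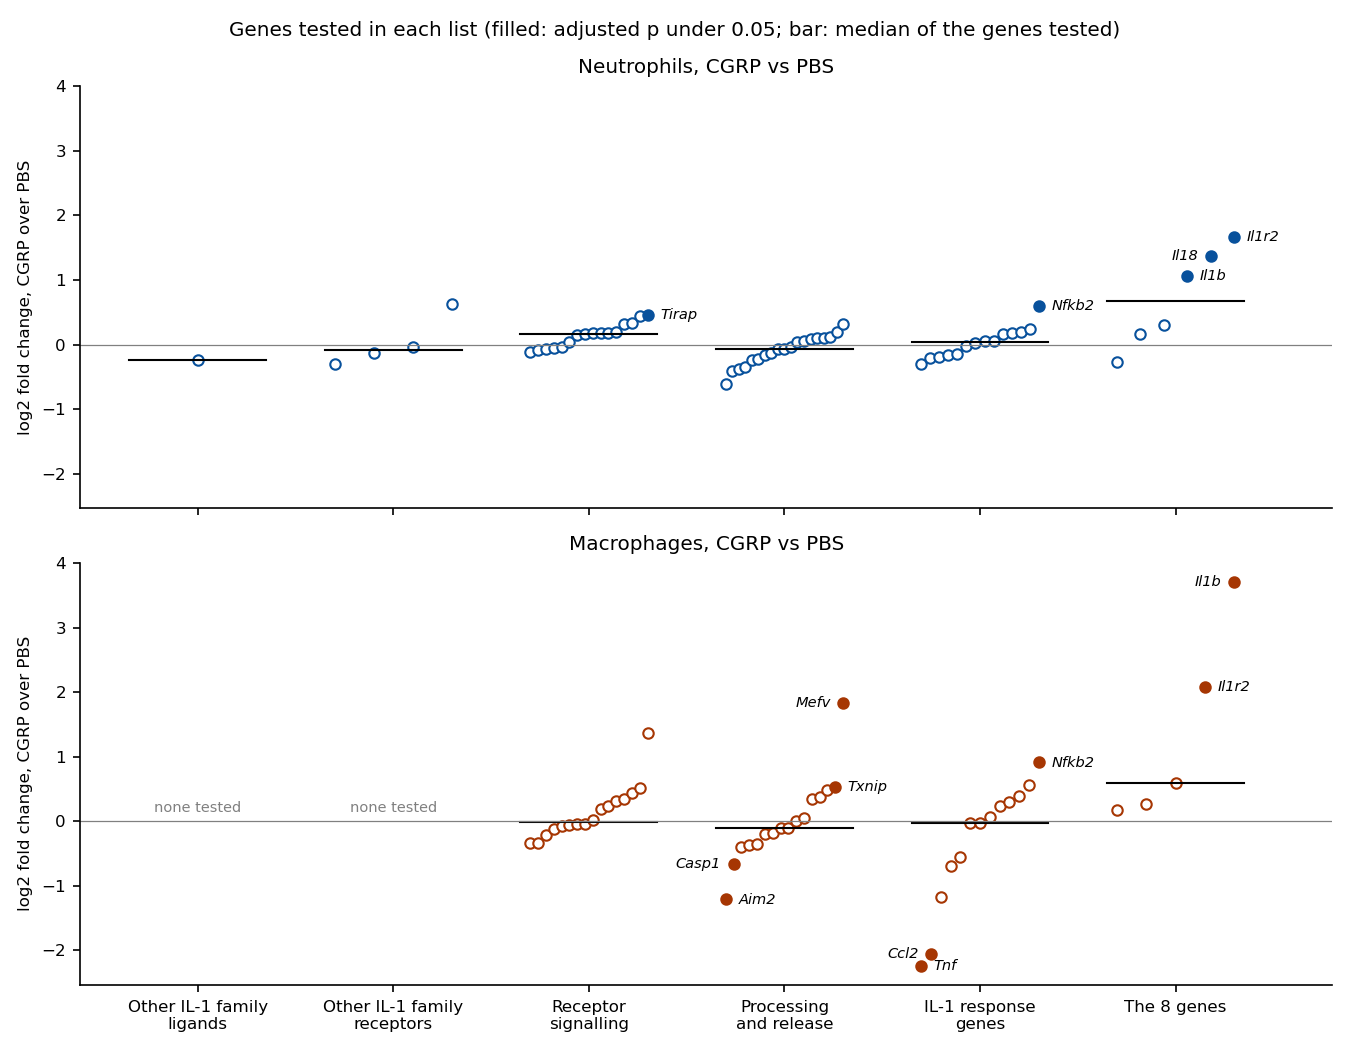
Log2 fold change of CGRP over PBS (vertical axis) for every tested gene of 5 pathway lists and of the 8 genes, in neutrophils (top) and macrophages (bottom); filled points have an adjusted p under 0.05 and bars are the medians of the tested genes. Most pathway genes lie near 0, with Ccl2 and Tnf below -2 in macrophages and Il1b at 3.71.

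The genes with the profile nearest to each member called in a CGRP comparison were named by the root mean square difference of mean-centred log2 CPM over the 12 libraries, among 10694 genes. For Il1b they were Gpr171 (0.51), Stat4 (0.51) and Slc16a3 (0.62), the last a lactate transporter, against a spread of Il1b about its own mean of 1.99. Mean levels of Slc16a3 were 299 and 563 CPM in PBS and CGRP neutrophils and 35.3 and 151 CPM in PBS and CGRP macrophages. For Il1r2 they were Trem1 (0.44), an activating receptor of myeloid cells, F5 (0.65), which encodes coagulation factor V, and Mcemp1 (0.67), against a spread of 2.86. Trem1 had 90.0 and 156 CPM in PBS and CGRP neutrophils and 0.855 and 3.86 CPM in the macrophages. For Il18 they were Clec4d (0.28), a C-type lectin receptor, Lyrm4 (0.38) and Katnbl1 (0.38), against a spread of 0.76. Clec4d had 106 and 235 CPM in PBS and CGRP neutrophils and 296 and 407 CPM in the macrophages. These genes were picked for their values, and their levels are given as a description.

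**Figure D4:**
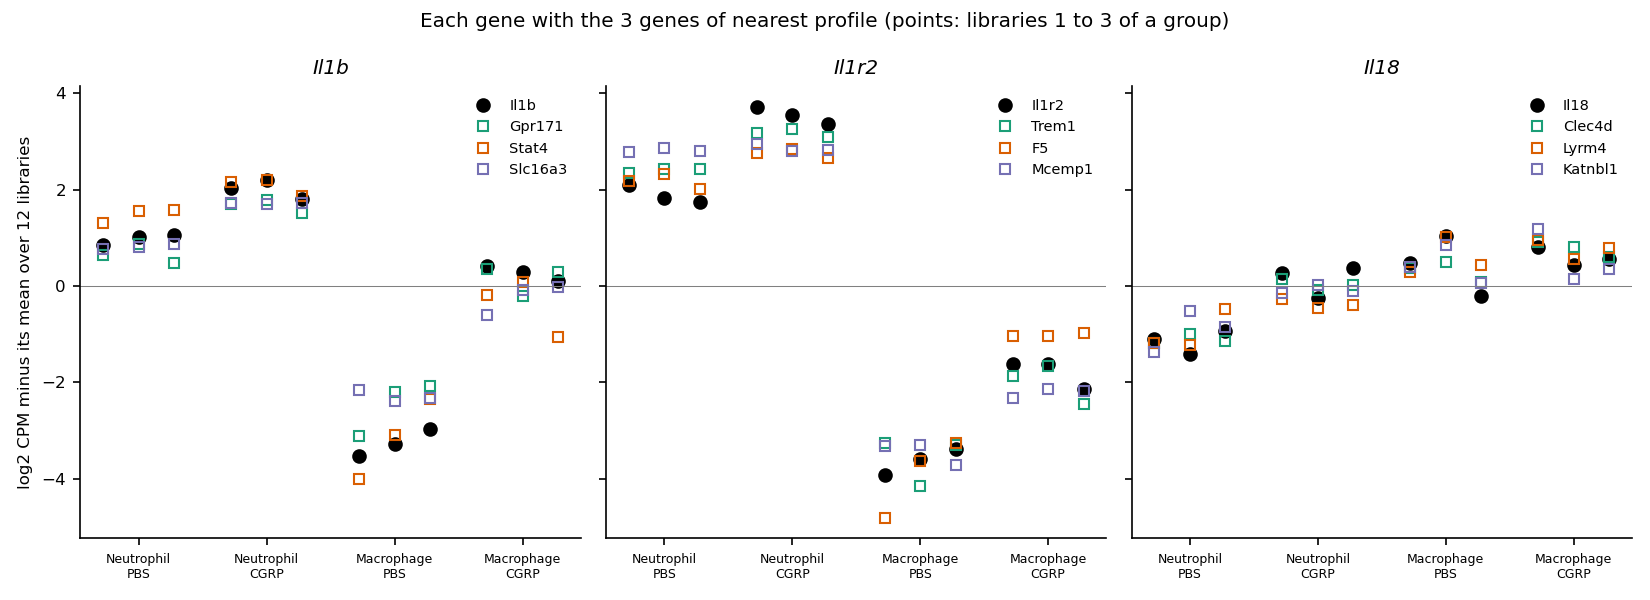
Log2 CPM minus its mean over the 12 libraries (vertical axis) for Il1b, Il1r2 and Il18 (black circles) and the 3 genes of nearest profile (open squares), by group; each point is a library. The Il1b and Il1r2 panels lie below -2 in PBS macrophages and higher in CGRP macrophages, whereas the Il18 panel is lowest in PBS neutrophils.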

How the data were processed

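Neutrophils and monocyte-derived macrophages of mice were profiled by 3′ RNA-seq primed on the poly-A tail, from 20 ng RNA (integrity number of at least 7) with a 10-base molecular identifier. Per the study's methods and the submitters' processing notes, the authors processed reads with nfCore/RNAseq 3.2 using molecular identifiers, aligned them to GRCm38 with STAR and deposited raw featureCounts counts per gene in 2 tables. Annotation release, strand setting and tool versions beyond these are not given in the sources used here. Each identifier marks a molecule, but deduplication cannot be checked from counts.

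After genes with few counts were removed (filterByExpr), CPM values were TMM-scaled, and limma-voom compared CGRP with PBS (limma 3.58.1, edgeR 4.0.16, R 4.3.3) within each cell type's 6 libraries. The interaction and the resting contrast used all 12. Calls are at an adjusted p under 0.05. Also tried were DESeq2 1.42.0, the quasi-likelihood test of edgeR, other scalings and filters, library weights, thinning to the smallest library, a replicate block and leaving out each library. The fits were tested on simulated data. With 3 libraries per group and 2002559 to 3631989 counts each, 3 counts correspond to 0.873 to 1.52 CPM, depending on the library. Gene positions and overlaps came from GENCODE M21 (52403 of 52636 table identifiers matched) and upstream sequence from RefSeq.

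By rule, the genes named are the 8 members in every comparison, pathway-list genes called in either CGRP comparison, and the 3 nearest profiles of each member called there. Called marker genes, other family genes and overlapping loci are named outside that rule, after their values were seen. The members and lists were chosen with earlier results of these data known.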

Additional observations from a re-analysis of the deposited data

Results flagged for a closer look

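The effect of CGRP differed between macrophages and neutrophils for 3 genes among the 8 members and the called pathway genes, by the interaction of treatment and cell type over the 12 libraries (limma-voom). Of all 10694 genes tested, 2.36% were called in that interaction. The pathway genes considered here had been chosen because a CGRP comparison called them, so the number 3 is a description. The log2 fold change was larger in macrophages by 2.66 for Il1b and by 1.52 for Mefv, and for Ccl2 the difference was -2.10. Il1b rose in both cell types, whereas Mefv and Ccl2 passed the test within macrophages only. The causes of these differences were not tested. Groups of 3 libraries are too small to name a single library as outlying, but all 3 genes stayed called in the interaction with any library left out.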

How the results depend on the processing

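Among the 8 genes, the calls of Il1b in both cell types and in the interaction and of Il1r2 in neutrophils held in every other setting and with any library left out, whereas that of Il18 in neutrophils was lost without PBS library 1 or 2 as reported. The numbers called moved more. With one library left out, 138 to 234 genes were called in neutrophils (248 with all; 138 without PBS library 1, 138 without PBS library 2 and 153 without CGRP library 2), 347 to 765 in macrophages (698 with all; 347 without PBS library 1, 348 without CGRP library 2 and 439 without CGRP library 3) and 149 to 328 in the interaction (252 with all; 149 without macrophage PBS library 1). Of the 8 genes, 1 to 3 were then called in the interaction, where 2 were called without neutrophil PBS library 1 and 3 without macrophage PBS library 3, Il1r1 among them. Library quality weights gave 1406 genes in macrophages and 520 in the interaction, with 4 and 2 of the 8 genes (Il18bp added in the interaction). A filter of 10 counts in every library left 1 of the 8 genes called in macrophages and 3 in the resting contrast, since it tests fewer genes, and no filter gave 2 in the interaction, the added gene being Il1r1. The cause of the other shifts was not tested. Scaling by library size alone moved the share of calls that were higher in neutrophils to 70.1% (59.7% with TMM), and in the interaction to 36.4% (51.2% with TMM). In macrophages the share moved to 37.7% (46.6% with TMM). In the resting contrast it moved to 51.9% (47.8% with TMM), so that most calls there were then higher in macrophages.

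The sign changed only for values that were not called. In macrophages Tirap (0.02) went to -0.0286 by library size alone, -0.00118 with 10 counts in every library, -0.0456 with quality weights and -0.0166 after thinning, and lay between -0.18 and 0.21 with a library left out (-0.18 without CGRP library 1, -0.0176 without PBS library 2 and -0.00226 without CGRP library 2), and Il18 lay between -0.12 (without PBS library 3) and 0.48. Ccl2 in neutrophils (0.06) lay between -0.0651 (without CGRP library 3) and 0.19. In the interaction Il1rn went to 0.17 with quality weights, 0.0315 after thinning, 0.014 and 0.034 without neutrophil PBS or CGRP library 1, and 0.15 and 0.12 without macrophage PBS library 3 or CGRP library 1, and Il1rap lay between -0.0459 (without macrophage PBS library 1) and 0.58.

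Libraries of PBS and CGRP groups share replicate numbers, and whether these numbers pair them is not given in the sources used here. Within a cell type, deviations of libraries with the same number correlated at -0.179 to 0.273. For libraries with different numbers, the correlations ran from -0.402 to 0.386. With 3 libraries per group, these correlations cannot decide whether the numbers pair the libraries. With the replicate number as a block, 254, 905, 288 and 7369 genes were called in neutrophils, macrophages, the interaction and the resting contrast, and no call among the 8 members and the called pathway and marker genes changed. Counts of Il1a and Il1r1, at most 11 in any library, limit what can be said of them.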

Other observations

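Other members of the IL-1 family were seen mainly in the neutrophil libraries. Il1f9, the older symbol of the gene for IL-36γ, had 2016 counts in PBS and 1605 in CGRP neutrophils, and 9 and 6 counts in PBS and CGRP macrophages. Its log2 fold change with CGRP in neutrophils was -0.24 (95% interval -0.50 to 0.02, limma-voom adjusted p = 0.446). The accessory chain of the IL-18 receptor, Il18rap, was at 83.5 ± 2.59 and 81.9 ± 18.5 CPM in PBS and CGRP neutrophils (SD, n = 3, limma-voom adjusted p = 0.939), and had 7 and 5 counts in the macrophages. Il18r1, the ligand-binding chain, had 65 and 50 counts in PBS and CGRP neutrophils and 0 in the 6 macrophage libraries, where 3 counts would be 0.873 to 1.52 CPM. Il33 had 4 counts in PBS and 2 in CGRP neutrophils and none in macrophages, and Il1f5, Il1f6 and Il1f10 had none in any library.

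Counts of loci that overlap the members varied. Numa1, whose exons overlap those of Il18bp on the other strand, had 522 and 521 counts in PBS and CGRP neutrophils, against 196 and 157 for Il18bp. The antisense gene Il1bos, which overlaps Il1b, had 0 counts in PBS libraries and 2 and 1 counts in CGRP neutrophils and macrophages, against 1707 and 452 for Il1b. Gm14023, which overlaps Il1a on the other strand, had 17 and 20 counts in PBS and CGRP neutrophils, about as many as Il1a (18 and 24), so that reads of the pair cannot be told apart if counting ignored strand. Gm16894, within Il1r2 on the other strand, had 15 and 13 counts in PBS and CGRP neutrophils.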
